A study of Homo sapiens with 16 samples.

Results

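Transcription factor genes that set and hold the identity of B cells were followed across the peak lists of 3 histone marks: PAX5, EBF1, IKZF1, IKZF3, POU2AF1, POU2F2, SPIB, SPI1, BCL11A and ETS1. They are a named list of 10 among the 19974 protein-coding genes of the RefSeq table used here, and each was examined over its annotated length plus 10 kb on both sides. The chromatin came from Toledo cells, an established lymphoma line of B-cell origin. CARM1i cells received 5 uM TP-064, a compound that blocks the arginine methyltransferase CARM1, over 6 days, and DMSO cells received the solvent over the same 6 days. H3K27ac, H3K4me1 and H3K4me3 were each mapped by ChIP-seq in 2 libraries per treatment, which gives 12 peak lists. Libraries of both treatments came from this 1 line, and whether the paired libraries of a group derive from distinct cultures is not stated, so any p-value measures a spread that may be technical.

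These proteins form the core regulatory circuit of the B lineage. PAX5 and EBF1 switch on B-cell genes and shut off other fates, the Ikaros family members IKZF1 and IKZF3 tune lymphoid transcription, POU2F2 and its coactivator POU2AF1 act at octamer elements, SPI1, SPIB and ETS1 are ETS-domain factors, and BCL11A is a zinc finger repressor of early lymphoid cells. Lineage factor genes of this kind often carry long stretches of active chromatin. Acetylation at H3K27ac is a sign of promoters and enhancers in use, H3K4me3 is typical of promoters, and H3K4me1 lies mainly at enhancers. By its title, the study concerns CARM1 inhibition in lymphomas whose CREBBP or EP300 gene is mutated, and the products of both genes place H3K27ac.

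The lists differ in length, and this bears on each value that follows. H3K27ac lists held 4595 to 4771 peaks with CARM1i and 4016 to 7885 with DMSO, H3K4me1 lists 4094 to 4242 with CARM1i and 9673 to 25058 with DMSO, and H3K4me3 lists 10048 to 10317 with CARM1i and 11481 to 12476 with DMSO. Read depth is unknown, no peak has a score, and sequencing lane (4 for each CARM1i library, 3 for each DMSO library) and treatment cannot be told apart. On the log2 scale the total covered length of the lists differed by -0.33 for H3K27ac, -2.24 for H3K4me1 and -0.43 for H3K4me3 (CARM1i over DMSO). A site with no peak may still carry the mark at a level the caller did not pass. Marker genes of cell types were read over the gene plus 10 kb on both sides, so a peak counted there may belong to a neighbouring gene. Of 6 B-cell marker genes, 5 carried H3K4me3 or H3K27ac in each CARM1i library and 6 in each DMSO library. Such peaks were absent in all 4 libraries at CD3D, CD3E, GATA3, TBX21 and NCAM1 among 8 T and NK cell markers, where CD3G, BCL11B and NKG7 had H3K4me3 in all 4. They were absent at CSF1R, CEBPA, MPO and ITGAM among 6 myeloid markers, where CD14 and LYZ had H3K4me3 in all 4. Of 3 erythroid markers GATA1 and KLF1 had H3K4me3 in all 4 libraries and HBB had none, and of 4 epithelial and stromal markers 1 was marked in each CARM1i library and 2 in each DMSO library, with none at EPCAM and KRT8.

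After CARM1 inhibition the 10 windows all still held H3K4me3, although at POU2F2 this was only the edge of a peak at the neighbouring gene ZNF574, while SPI1 and ETS1 were left without an H3K27ac peak. The covered length, meaning the bp of a window that lie under peaks, was lower in both CARM1i libraries than in both DMSO libraries for 4 of 10 genes in H3K27ac (IKZF3, SPI1, BCL11A and ETS1) and for 10 of 10 in H3K4me1 and in H3K4me3, but scaled as a share of each list's total length only 3 of 10 (POU2AF1, BCL11A and ETS1) were lower and 2 (IKZF1 and IKZF3) higher in H3K4me1, and 2 (IKZF3 and POU2F2) were lower and 4 (EBF1, POU2AF1, SPI1 and BCL11A) higher in H3K4me3, and in H3K27ac 5 were lower (SPIB joining the 4) and 1 (PAX5) higher. Among all genes marked in both DMSO libraries, 54.1% were lower in this way in H3K27ac, 90.0% in H3K4me1 and 86.0% in H3K4me3, and as a share of the lists 42.2%, 48.0% and 18.9%, so the members' counts lie near or below the background. In the opposite direction 0 of 7 members were higher in H3K27ac, 0 of 6 in H3K4me1 and 0 of 10 in H3K4me3, against 16.2%, 0.753% and 0.636% of the genes marked in both CARM1i libraries. These shares are for unscaled lengths. The share of all genes higher after scaling was not computed, so the scaled counts of higher members have no background. A two-sided exact permutation test over 4 libraries cannot give a p below 0.333, the value for each gene whose groups did not overlap, so no gene of this design can pass the usual threshold.

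**Figure D1:**
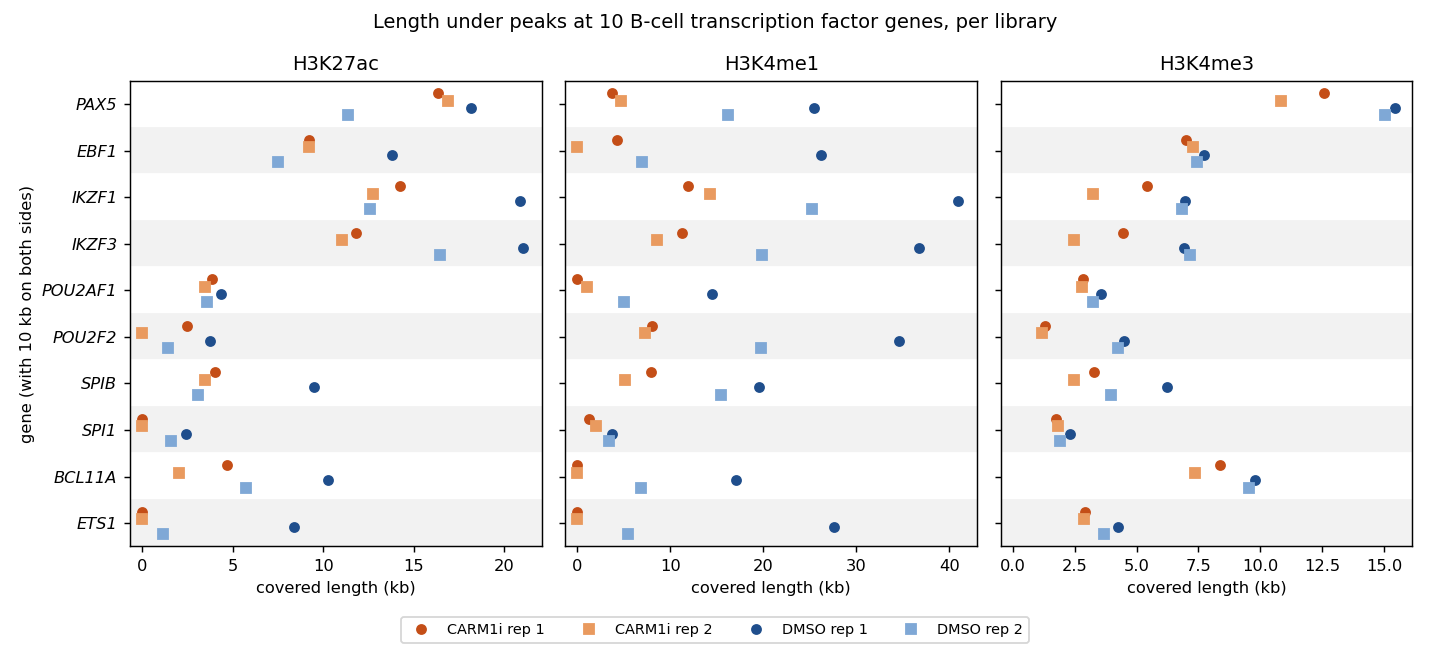
Length under peaks (kb, linear axes) at the 10 genes with 10 kb on both sides, 1 point per library, with CARM1i libraries in orange and DMSO libraries in blue. In H3K27ac both CARM1i points lie at 0 for SPI1 and ETS1, while the CARM1i points of PAX5 at 16332 and 16896 bp lie between the DMSO points at 18140 and 11344 bp.

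PAX5 had an H3K4me3 domain (chr9:37023333-37038773, hg38) that was interrupted in both CARM1i libraries and unbroken in both DMSO libraries. It consisted of 3 peaks covering 12587 bp in CARM1i replicate 1 and 2 peaks covering 10841 bp in CARM1i replicate 2. In DMSO replicate 1 it was 1 peak of 15441 bp, rank 1 by width of 12476 peaks, and in DMSO replicate 2 it was 1 peak of 15026 bp, rank 1 of 11481. The peak over the annotated start reached 2976 and 2507 bp into the gene in the CARM1i libraries, against 10935 and 10793 bp in the DMSO libraries, with a second block of 4645 and 4461 bp further inside the gene in the CARM1i libraries. Upstream of the start the reach was 3782 and 3872 bp with CARM1i, against 4505 and 4232 bp with DMSO. The log2 ratio of covered length was -0.38, close to the middle of the 11314 genes with H3K4me3 in all 4 libraries (median -0.29), and PAX5 ranked 4 by covered length among all genes in both treatments.

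H3K27ac at PAX5 stayed over the same stretch. Across the start and the first part of the gene (chr9:37027785-37039580) H3K27ac covered 10454 and 11408 bp in the CARM1i libraries, against 10760 and 8544 bp in the DMSO libraries. The neighbouring block (chr9:37024374-37027748) measured 3339 and 3375 bp with CARM1i, against 3219 and 2800 bp with DMSO. Over the whole window the values were 16332 and 16896 bp with CARM1i, against 18140 and 11344 bp with DMSO, so the groups overlapped (log2 ratio 0.17, exact permutation p = 1). Further inside the gene an H3K27ac region (chr9:36993059-36997219) measured 2539 and 2113 bp with CARM1i, against 4161 and 0 bp with DMSO. H3K4me1 was absent over the start in all 4 libraries, and in the window it covered 3673 and 4731 bp with CARM1i, against 25475 and 16168 bp with DMSO.

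EBF1 kept 1 H3K4me3 domain in all 4 libraries. It measured 7003 and 7283 bp in the CARM1i libraries, against 7740 and 7440 bp in the DMSO libraries, a log2 ratio of -0.09. That ratio lay above the ratios of 92.6% of the genes with H3K4me3 in all 4 libraries, and as a share of the list the log2 ratio was 0.35. H3K27ac over the start region (chr5:159094662-159101246) covered 4631 and 4218 bp with CARM1i, against 6585 and 3675 bp with DMSO, which overlap. A second H3K27ac region inside the gene (chr5:158750889-158755595) covered 3370 and 3402 bp with CARM1i, against 4707 and 3836 bp with DMSO. Between these, EBF1 held the single gained H3K27ac region of the 10 windows, chr5:158757027-158759400, with 1240 and 1589 bp in the CARM1i libraries and no peak in either DMSO library. Of all H3K27ac regions without a DMSO peak 19.4% were gained, and the members had 1 of 3. H3K4me1 covered 4306 and 0 bp at EBF1 with CARM1i, against 26200 and 6938 bp with DMSO.

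The Ikaros family members are IKZF3, also called Aiolos, and IKZF1, Ikaros itself. At IKZF3, H3K27ac covered 11788 and 11050 bp with CARM1i, against 21005 and 16423 bp with DMSO (log2 ratio -0.71, exact permutation p = 0.333), and the groups did not overlap. As a share of the list the log2 ratio was still -0.54. An internal region (chr17:39791750-39796800) had 1283 and 1533 bp in the CARM1i libraries, against 5051 and 4101 bp in the DMSO libraries. The region over the gene's upper end (chr17:39860207-39866771) had 3775 and 3413 bp with CARM1i, against 6565 and 6110 bp with DMSO. The region over its lower end (chr17:39753089-39760166) measured 6730 and 5062 bp with CARM1i, against 7078 and 6212 bp with DMSO, so there the groups overlapped. H3K4me3 covered 4468 and 2461 bp with CARM1i, against 6905 and 7151 bp with DMSO, a log2 ratio of -1.02 that only 4.37% of genes undercut. That ratio pools a region outside the gene (chr17:39753247-39755722), of 1747 and 0 bp with CARM1i, against 2374 and 2253 bp with DMSO. The H3K4me3 region over the upper end alone had 2721 and 2461 bp with CARM1i, against 4531 and 4898 bp with DMSO (log2 ratio -0.86). ZPBP2 also lies in the IKZF3 window, but none of these H3K27ac or H3K4me3 regions touched another coding gene.

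IKZF1 kept H3K27ac across its promoter domain in all 4 libraries. H3K27ac from the first start to the second (chr7:50303524-50310702) covered 6852 and 6515 bp in the CARM1i libraries, against 7026 and 6656 bp in the DMSO libraries. H3K4me3 on the same stretch covered 5412 and 3234 bp with CARM1i, against 6968 and 6836 bp with DMSO (log2 ratio -0.67, -0.26 as a share of the list, exact permutation p = 0.333). A region within the gene (chr7:50335155-50339853) carried H3K27ac of 3434 and 3522 bp with CARM1i, against 4544 and 0 bp with DMSO. Another (chr7:50392624-50396194) carried 2002 and 0 bp with CARM1i, against 3571 and 2912 bp with DMSO. Over the whole window the H3K27ac values were 14256 and 12735 bp with CARM1i, against 20849 and 12565 bp with DMSO, and the groups overlapped.

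Sequences around 4 start sites are shown because 2 of these windows lost H3K4me3 and 2 kept it. Each is the RefSeq window of 250 bases before to 50 bases after an annotated start (GRCh38.p14), read in the direction of transcription, with CG dinucleotides in capitals. The table held such windows for 6 of the 10 genes, 12 windows in all. The windows of the second IKZF1 start (chr7:50308450-50308749, plus strand) and the POU2F2 start (chr19:42132397-42132696, minus strand) had H3K4me3 in neither CARM1i library and in both DMSO libraries. Just downstream of that IKZF1 window, CARM1i replicate 1 still held an H3K4me3 peak of 1682 bp (chr7:50308837-50310518). The merged region over this start therefore does not count as lost. The POU2F2 start lies inside the annotated gene. The first IKZF1 start (chr7:50304466-50304765, plus strand) and the PAX5 start (chr9:37034219-37034518, minus strand) were covered over all 300 bases in all 4 libraries.
IKZF1 second start: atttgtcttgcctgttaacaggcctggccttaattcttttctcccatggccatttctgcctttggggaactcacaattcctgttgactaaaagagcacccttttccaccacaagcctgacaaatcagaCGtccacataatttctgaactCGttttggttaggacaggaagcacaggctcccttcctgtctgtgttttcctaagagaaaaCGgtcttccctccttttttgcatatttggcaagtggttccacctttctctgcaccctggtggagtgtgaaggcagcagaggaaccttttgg
POU2F2 start: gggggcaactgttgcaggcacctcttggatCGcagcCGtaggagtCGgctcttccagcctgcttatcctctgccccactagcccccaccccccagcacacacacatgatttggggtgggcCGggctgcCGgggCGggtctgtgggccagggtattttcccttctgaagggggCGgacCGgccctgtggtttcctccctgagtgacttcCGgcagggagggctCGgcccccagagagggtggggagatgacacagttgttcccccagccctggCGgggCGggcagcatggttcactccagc
IKZF1 first start: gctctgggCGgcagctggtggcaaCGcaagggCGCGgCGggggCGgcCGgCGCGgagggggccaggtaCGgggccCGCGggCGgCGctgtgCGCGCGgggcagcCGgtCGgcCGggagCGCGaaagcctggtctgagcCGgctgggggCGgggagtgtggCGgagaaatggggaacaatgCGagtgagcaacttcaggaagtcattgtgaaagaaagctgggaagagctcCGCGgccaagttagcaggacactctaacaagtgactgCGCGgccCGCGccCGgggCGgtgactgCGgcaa
PAX5 start: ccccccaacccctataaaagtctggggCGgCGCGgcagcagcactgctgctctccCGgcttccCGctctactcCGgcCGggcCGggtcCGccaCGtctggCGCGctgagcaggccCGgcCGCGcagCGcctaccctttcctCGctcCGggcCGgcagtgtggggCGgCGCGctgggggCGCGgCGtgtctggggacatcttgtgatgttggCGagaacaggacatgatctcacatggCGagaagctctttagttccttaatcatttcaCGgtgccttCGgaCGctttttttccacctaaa

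The windows that lost H3K4me3 hold 3 CG dinucleotides at the second IKZF1 start and 12 at POU2F2, while the first IKZF1 start holds 35 and PAX5 30, the highest counts of the windows that kept it. EBF1 with 8 CG and SPIB with 11 kept H3K4me3 in all 4 libraries with fewer CG than the POU2F2 window. Over the 12 windows, the 8 with H3K4me3 in all 4 libraries held 8 to 35 CG, and the 2 without H3K4me3 in any library held 0 and 5. The members lost 2 of 10 windows that DMSO cells had marked, where 6.12% of 11472 such windows of coding genes were lost. The 702 lost windows had a median of 23 CG (quartiles 13 and 33), against 28 (21 and 35) for the 10333 windows with the mark in all 4 libraries. H3K27ac covered all 300 bases of the second IKZF1 start in all 4 libraries, whereas the POU2F2 start had no H3K27ac in any library.

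Matches to binding motifs of the factors themselves were read on both strands in the same windows, counting overlapping matches separately. The ETS core GGAAGT was found at BCL11A, EBF1, IKZF1 and POU2F2, in 5 of 12 windows, and 23.9% of 22156 start windows of coding genes hold it. At POU2F2 its first base lies 47 bases before the start (position -47). The Ikaros core TGGGAA was found in 4 windows (BCL11A, EBF1 and IKZF1), against 22.7% of all windows, and the EBF palindrome CCCNNGGG in 4 (BCL11A, IKZF1 and SPIB), against 21.7%. The octamer ATGCAAAT, held by 1.66% of all windows, had no match in the 12. A match describes letters and not a bound site.

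**Figure D2:**
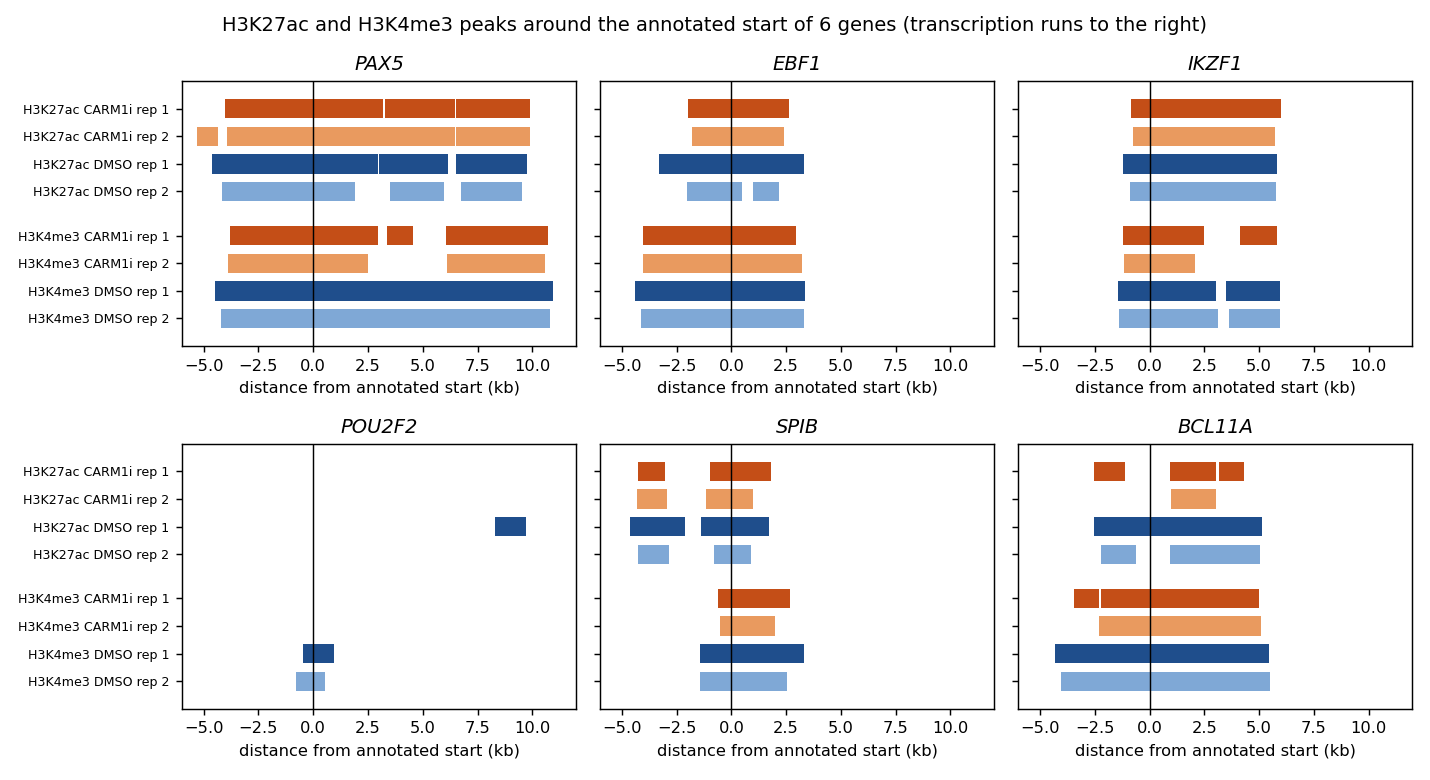
H3K27ac and H3K4me3 peaks from 6 kb before to 12 kb after the annotated start nearest the gene's 5' end (vertical line, distance in kb) at 6 genes, 1 row per library, CARM1i above DMSO. At PAX5 the CARM1i H3K4me3 peaks are interrupted and the DMSO peaks of 15441 and 15026 bp are unbroken. At POU2F2 the start drawn lies inside the annotated gene, and the H3K4me3 peak over it appears in the DMSO rows only.

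The octamer factor POU2F2 lost H3K4me3 at both of its own sites. The start examined here lies inside the annotated gene (chr19:42086110-42197936, minus strand), and no library had an H3K4me3 peak at the gene's upper end. The region over the start (chr19:42131504-42133255) had 0 and 0 bp with CARM1i, against 1432 and 1366 bp with DMSO. A second site in the gene (chr19:42176111-42177853) had 0 and 0 bp with CARM1i, against 1743 and 1472 bp with DMSO. The covered length that remained in the window, 1290 and 1179 bp with CARM1i against 4490 and 4250 bp with DMSO, is with CARM1i wholly the edge of a peak at the neighbouring gene ZNF574. The log2 ratio of -1.82 therefore rests on that peak and is no measure of POU2F2 itself. These are the 2 lost H3K4me3 regions among the 14 in the 10 windows with a peak in both DMSO libraries, where 10.9% of all such regions were lost, and 0 of 10 members were lost as genes (4.79% of all genes), POU2F2 escaping that count through the ZNF574 peak. H3K4me1 in the region around the start (chr19:42127542-42136191) covered 3032 and 3661 bp with CARM1i, against 8650 and 5807 bp with DMSO, and of the start window itself 0 and 252 bases with CARM1i, against 300 and 173 with DMSO. H3K27ac at POU2F2 was sparse, at 2468 and 0 bp with CARM1i, against 3768 and 1438 bp with DMSO. Its coactivator POU2AF1 had 1 H3K27ac region, over the gene's upper end, with 3843 and 3466 bp in the CARM1i libraries, against 4334 and 3614 bp in the DMSO libraries (exact permutation p = 0.667). H3K4me3 at POU2AF1 covered 2853 and 2779 bp with CARM1i, against 3580 and 3249 bp with DMSO, while H3K4me1 covered 0 and 982 bp with CARM1i, against 14430 and 4971 bp with DMSO.

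Among the ETS-domain factors, SPI1 and ETS1 ended without H3K27ac. SPI1, which encodes PU.1, had a single H3K27ac region at its upper end (chr11:47377109-47379553) of 0 and 0 bp with CARM1i, against 2445 and 1626 bp with DMSO. H3K4me3 at the same place covered 1724 and 1818 bp with CARM1i, against 2323 and 1904 bp with DMSO, and H3K4me1 covered 1256 and 1994 bp with CARM1i, against 3750 and 3361 bp with DMSO. At ETS1 the H3K27ac values were 0 and 0 bp with CARM1i, against 8404 and 1180 bp with DMSO, so in DMSO replicate 2 the mark rested on 1 narrow peak (chr11:128521563-128522742). H3K4me1 at ETS1 was 0 and 0 bp with CARM1i, against 27566 and 5407 bp with DMSO. H3K4me3 stayed as 1 peak over that same place, with 2933 and 2881 bp in the CARM1i libraries, against 4255 and 3676 bp in the DMSO libraries. The 2 of 10 members that lost H3K27ac compare with 24.1% of the 3469 genes with H3K27ac in both DMSO libraries, and their 2 lost regions of 17 with 24.5% of regions, so neither share stands above the background. SPIB kept H3K27ac over its start (chr19:50417563-50420751), at 2789 and 2121 bp with CARM1i, against 3101 and 1680 bp with DMSO. H3K4me3 at SPIB covered 3291 and 2489 bp with CARM1i, against 6248 and 3968 bp with DMSO, a log2 ratio of -0.82 that turned around when peaks touching the neighbouring gene POLD1 were left out, as the wider DMSO peaks do.

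**Figure D3:**
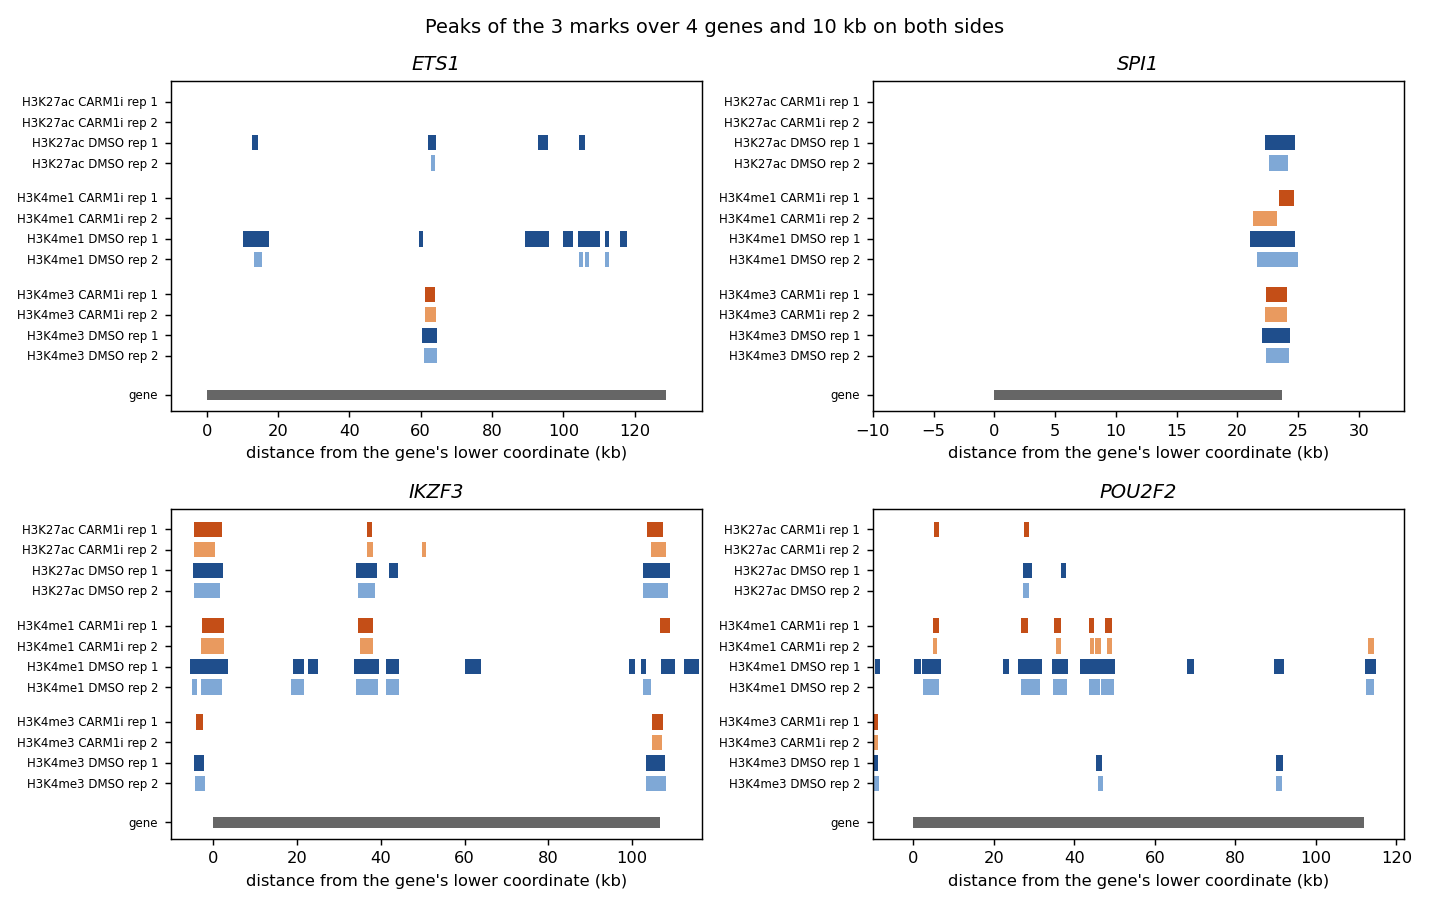
Peaks of the 3 marks at ETS1, SPI1, IKZF3 and POU2F2, 1 row per library with CARM1i above DMSO, drawn to scale by distance in kb from the gene's lower coordinate (grey bar, gene). At ETS1 and SPI1 the H3K27ac rows of both CARM1i libraries are empty while the H3K4me3 rows are filled in all 4 libraries.

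BCL11A combined a kept H3K4me3 domain with reduced acetylation. H3K4me3 (chr2:60548423-60558231) covered 8356 and 7380 bp with CARM1i, against 9771 and 9545 bp with DMSO, a log2 ratio of -0.30 (0.13 as a share of the list), and the widest peak ranked 11 and 6 by width in the CARM1i lists, against 5 and 2 in the DMSO lists. The peak over the outermost start reached 2224 and 2303 bp upstream with CARM1i, against 4307 and 4043 bp with DMSO. Into the gene that peak reached 5013 and 5076 bp with CARM1i, against 5463 and 5501 bp with DMSO. In CARM1i replicate 1 the domain also held a separate peak of 1118 bp further upstream (chr2:60556239-60557356). H3K27ac in the window covered 4666 and 2050 bp with CARM1i, against 10253 and 5714 bp with DMSO (log2 ratio -1.25, and lower also as a share of the list), a ratio that was below that of all but 4.72% of the 1886 genes with H3K27ac in all 4 libraries. The H3K27ac region at the starts (chr2:60548811-60556466) was present in all 4 libraries, but the outermost start itself was covered in DMSO replicate 1 only. H3K4me1 in the BCL11A window was 0 and 0 bp with CARM1i, against 17074 and 6800 bp with DMSO, although a region crossing the window's lower edge (chr2:60436040-60441139) had peaks of 2706 and 1807 bp with CARM1i just outside it.

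Region by region, acetylated sites of these genes showed several patterns. The 10 windows held 31 H3K27ac regions, merged over the 4 libraries, of which 13 were present in all 4, 9 in DMSO replicate 1 alone, 2 lost and 1 gained, and of all H3K27ac regions 18.3% were present in all 4. The 12 that overlapped H3K4me3 covered 47.1 and 41.6 kb with CARM1i, against 64.7 and 47.8 kb with DMSO, and 9 of them were present in all 4 libraries, against 22.5% of all such regions. The 18 that overlapped H3K4me1 but not H3K4me3 covered 19.6 and 16.2 kb with CARM1i, against 49.7 and 16.7 kb with DMSO, and 4 of them were present in all 4, against 21.9% of all such regions. In H3K4me1, 15 of the 35 regions marked in both DMSO libraries were lost, against 54.4% of all such regions, and 36 of 73 regions belonged to DMSO replicate 1 alone. BCL11A and ETS1 were the members that lost H3K4me1 as genes (2 of 10, against 39.8%). Summed over the windows, the log2 ratio of covered length was -0.50 for H3K27ac, -2.02 for H3K4me1 and -0.50 for H3K4me3, but as a share of the lists it was -0.23, 0.11 and -0.075. Without DMSO replicate 1 the H3K27ac ratio shrank to -0.039, and PAX5, EBF1, IKZF1 and SPIB then stood higher with CARM1i while the same 4 genes as before stood lower, as did 56.7% of all genes. The share of all genes that stood higher there was not computed. Without DMSO replicate 2 all 10 stood lower in H3K27ac, as did 88.2% of genes.

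**Figure D4:**
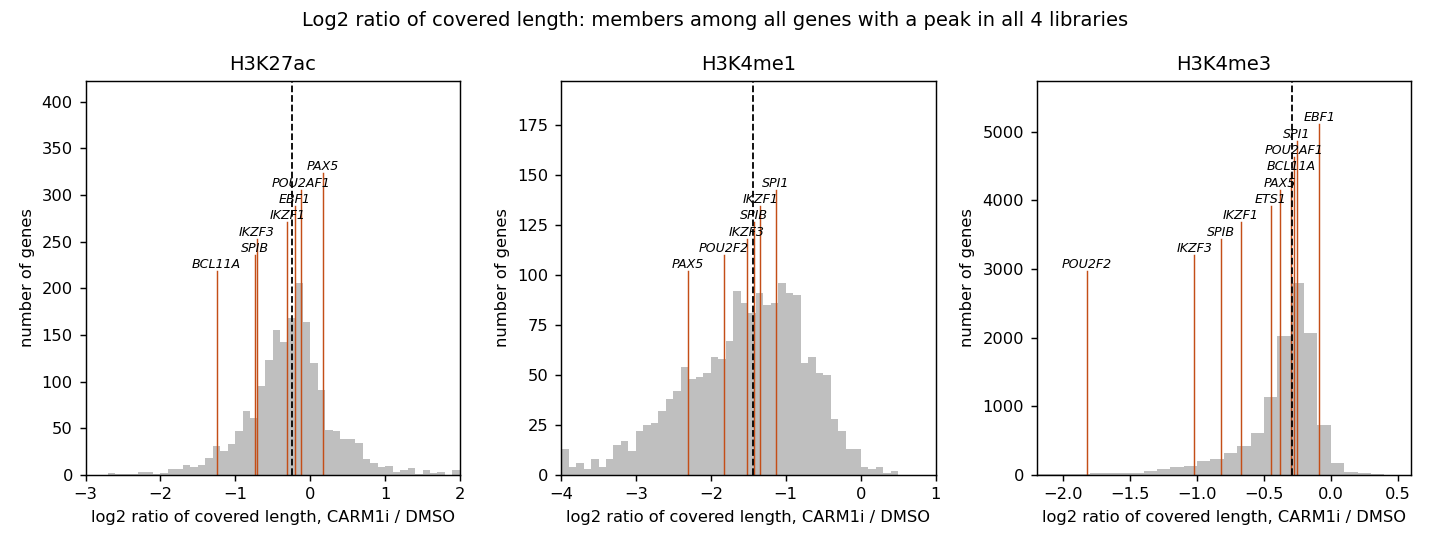
Log2 ratio of covered length, CARM1i over DMSO, for all genes with a peak in all 4 libraries (grey histogram, number of genes) and for the members among them (orange lines), with the median of all genes dashed and a few genes beyond the axes not drawn. The members' median is -0.31 for 7 genes in H3K27ac, -1.47 for 6 in H3K4me1 and -0.41 for 10 in H3K4me3, beside -0.24, -1.44 and -0.29 for all genes, the POU2F2 line in H3K4me3 rests on the edge of a ZNF574 peak, and as a share of the lists the H3K4me1 ratio of the summed windows turns to 0.11.

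Other transcription factors of B cells also mostly kept H3K4me3. Of a list of 34, 22 had H3K27ac in both DMSO libraries and 2 lost it (24.1% of all genes): BCL6, the germinal centre repressor (0 and 0 bp with CARM1i, against 1315 and 972 bp with DMSO), and ID3, an inhibitor of E proteins (0 and 0 bp, against 4270 and 939 bp). MEF2C, a MADS-box factor, gained H3K27ac (820 and 725 bp with CARM1i, against no peak with DMSO), as did 0.981% of genes without it in DMSO. Another 7 genes of the list had no H3K27ac peak in any library. H3K4me3 was present in both DMSO libraries at 33 and lost at 2 (4.79% of all genes), RUNX3 (2901 and 1716 bp with DMSO) and SOX5 (1793 and 1655 bp with DMSO). H3K4me1 was lost at 11 of 24, near the 39.8% of all genes, TCF12, FOXO1, ELF1, ELK4 and REL among them. MEF2C, which gained H3K27ac, was also among them (0 and 0 bp with CARM1i, against 4993 and 2210 bp with DMSO).

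The effector genes of B cells include surface receptors and signalling proteins. Of 20 such genes, 12 had H3K27ac in both DMSO libraries, and 0 of these lost it (24.1% of all genes) and 3 were lower (54.1%). At CD22, FCER2, CD37, LYN and CD40 H3K27ac was present in DMSO replicate 1 alone. H3K4me3 was lost at 4 of 19 (4.79% of all genes): CD22, an inhibitory coreceptor (1560 and 1557 bp with DMSO), CR2, a complement receptor (3287 and 1801 bp), CD37, a tetraspanin (1698 and 1395 bp), and CD40, a costimulatory receptor (2214 and 1687 bp). In H3K4me3, 17 of the 19 were lower (86.0% of all genes). Of the 15 with it in all 4 libraries, 2 were higher (0.636% of genes with it in both CARM1i libraries). The higher ones, BLNK and RAG1, were named after their values were seen. BLNK, an adaptor of the B-cell receptor, measured 3934 and 3871 bp with CARM1i, against 3269 and 3162 bp with DMSO. RAG1 measured 7331 and 7068 bp with CARM1i, against 6473 and 4873 bp with DMSO. In H3K27ac BLNK was lower, at 2929 and 3362 bp with CARM1i, against 4131 and 4085 bp with DMSO. For RAG1 the H3K27ac groups overlapped, at 5005 and 5084 bp with CARM1i, against 7040 and 3486 bp with DMSO. H3K4me1 was lost at 5 of 18 (39.8% of all genes), BLNK, VPREB3, FCER2 and BTK among them.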

How the data were processed

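ChIP-seq of H3K27ac, H3K4me1 and H3K4me3 in Toledo cells gave 12 peak lists, and the 4 input samples were not analysed here. The submitters' processing notes name the aligner Bowtie (1.1.2), the caller MACS (1.4.2) and the build hg38, while threshold, controls and filters go unstated. The deposited lists hold chromosome, start and end of each peak of 1 library, with no score, fold or p-value, so presence and covered length were the measures and depth is unknown. Peaks tend to be fewer and narrower where depth or enrichment is lower.

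Gene coordinates and start windows came from RefSeq tables of GRCh38.p14. Covered length was the bp of a gene and 10 kb on both sides under peaks, over 19974 coding genes on chromosomes 1 to 22 and X. Regions are the union of peaks of 1 mark that overlap or touch across its libraries. Lost means a peak in both DMSO and neither CARM1i library, gained the reverse, lower that both CARM1i values lie below both DMSO values. Code was tested on simulated data. Python 3.11.15, pandas 2.3.3 and numpy 2.4.6 were used.

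All 10 members are named whatever their state, and from the other lists the genes lost or gained, up to 10 a list. The members and lists were chosen with earlier results of these data known. No analysis treats genes or regions as replicates.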

Additional observations from a re-analysis of the deposited data

How the results depend on the processing

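Most recomputed values stayed near the reported ones under the alternatives, which is a measure of closeness and not of direction. Of 180 recomputed counts and summed ratios, 155 stayed near the reported value (counts within 1.5 times, ratios within the spread between libraries). Scaled as a share of each list's covered length, the summed H3K4me1 log2 ratio turned to 0.11 and the H3K4me3 ratio shrank to -0.075. In that setting 3 members were lower and 2 higher in H3K4me1 (48.0% of all genes lower), 2 lower and 4 higher in H3K4me3 (18.9% lower), and 1, PAX5, higher in H3K27ac. The shares of all genes higher in that setting were not computed. The rescaled H3K4me1 difference (CARM1i minus DMSO) turned to 15101 bp at IKZF1, 9391 at IKZF3, 3742 at POU2F2, 5774 at SPIB and 2050 at SPI1. In H3K4me3 it turned to 447 bp at PAX5, 1797 at EBF1, 340.0 at POU2AF1, 253 at SPI1 and 806 at BCL11A. The cause was not tested.

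With lists of equal length (the widest peaks), the H3K4me1 ratio was -1.47 with 4 regions lost, and 1 H3K4me3 region was lost. A flank of 50 kb, which takes in more regions, gave 24 lost H3K4me1 and 4 lost H3K4me3 regions. When peaks touching another coding gene were left out, SPIB turned to 2147 bp more H3K4me3 with CARM1i, the 1 member higher, with 1 region gained there. For these settings the shares of all regions lost or gained, and of all genes higher, were not computed. The region counts of this paragraph therefore have no background and do not show more or less loss.

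Leaving out each library in turn gave 4 to 10 members lower and 0 to 4 higher in H3K27ac. The lower members numbered 6 without CARM1i replicate 1 (69.8% of all genes) and 4 without CARM1i replicate 2 (61.3%). They numbered 4 without DMSO replicate 1 (56.7%) and 10 without DMSO replicate 2 (88.2%). The summed log2 ratio was -0.84 to -0.039, with 2 to 11 regions lost and 1 to 3 gained. For the higher members no share of all genes was computed, and for the region counts of any mark in these settings no share of all regions. The 11 lost regions came without DMSO replicate 2, the 3 gained without DMSO replicate 1, and without CARM1i replicate 1 there were 4 lost and 2 gained. For H3K4me1 the ratio ran between -2.43 and -1.44 and lost regions between 15 and 51 (51 without DMSO replicate 2), and for H3K4me3 lost regions between 2 and 4 (4 without CARM1i replicate 1).

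In log2 covered length per region, the differences between replicates 1 and 2 were nearly unrelated across the treatments. They correlated at 0.038, -0.033 and 0.044 over regions present in all 4 libraries of H3K27ac, H3K4me1 and H3K4me3. Only kept regions enter these values, so they cannot decide whether same-numbered libraries were paired. With the replicate block, 6, 10 and 10 members were lower in both pairs, and the summed log2 ratios were -0.44, -1.94 and -0.51. The share of all genes lower in both pairs was not computed. Absence of a peak cannot be separated from low depth.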
